A study of Mus musculus with 29 samples.

Results

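Prostaglandins and leukotrienes are lipid mediators made from arachidonic acid, and 10 genes of their synthesis, breakdown and sensing were described here in the colon of mice with dextran sodium sulphate (DSS) colitis. The genes were Ptgs1, Ptgs2, Ptges, Hpgd, Ptger2, Ptger3, Ptger4, Alox5, Alox5ap and Alox15. Each gene was taken by the probe set of the array that is annotated with its symbol and no other. Such a probe set was found for 9 of the 10 genes, 1 per gene, among 19938 genes and 35511 probe sets in all. Ptgs1, the constitutive cyclooxygenase, was not analysed here.

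RNA came from the most infiltrated part of the colon of female C57BL6J mice, 6 weeks old at the start, with 1 Affymetrix Mouse Gene 1.0 ST array per mouse. The paper states that mice of all groups were matched for age when killed. All colitis mice drank DSS and all groups share strain and sex. The groups were acute colitis, killed at the end of 7 days of DSS with no recovery (n = 4), 1-cycle colitis, with 7 days of DSS followed by 2 weeks of normal water (n = 5), 2-cycles colitis (n = 5) and 3-cycles colitis (n = 5), in which that cycle was repeated, 2 cycles with 3 additional weeks of recovery (n = 5), and controls on normal water (n = 5). By the paper, the percentage of DSS was higher in cycles 2 and 3 than in cycle 1. Acute and 1-cycle mice therefore drank only the lower percentage. DSS injures the epithelium chemically, so the model starts from a damaged barrier. 1 more acute array was not analysed here. Mice are named by the letter and digit of their labels (B3, for example), and the labels do not say what the letter stands for.

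Phospholipases release arachidonic acid from membranes. Cyclooxygenases convert it to prostaglandin H, from which Ptges makes prostaglandin E, a mediator of pain, fever and blood flow that also acts on repair of the gut epithelium through the receptors encoded by Ptger1 to Ptger4. Hpgd oxidises prostaglandin E to an inactive product and is abundant in the colonic epithelium. 5-lipoxygenase, encoded by Alox5, needs the membrane protein encoded by Alox5ap to start leukotriene synthesis in myeloid cells, and Alox15 encodes a lipoxygenase whose products include precursors of lipoxins.

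Values are log2 expression values, so 1 unit is a doubling. Differences were tested with limma, a linear model fitted to all probe sets with a shared estimate of their variance, with Benjamini-Hochberg adjustment across the 35511 probe sets of each comparison. A gene is said to have risen or fallen when its adjusted p was under 0.05, and is counted as called when the fold was also above 2. In the acute colon Ptgs2 rose 2.91-fold and Alox5ap 2.32-fold over controls, and Hpgd fell to a level 2.13-fold under controls. No member was called in 1-, 2- or 3-cycles colitis or after additional recovery, although Hpgd stayed below every control in all 24 DSS mice and Ptger3 in 23 of them. Over the array, 0.87% of probe sets had every DSS mouse below every control. The share with 23 such mice was not counted.

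Mice of 1 group were not alike, and this touches the results below. The 4 acute colons had neutrophil marker means (10 genes, log2) of 5.81 in B2, 8.48 in B3, 6.83 in B4 and 7.01 in C3, against 5.41 to 5.55 in controls, and macrophage marker means (9 genes) of 7.31 to 8.94, against 6.92 to 7.39. Smooth muscle marker means (8 genes) were 8.96 to 9.98 in acute colons, against 10.72 to 11.14 in controls. Squamous epithelium markers (8 genes), which the normal glandular colon lacks, averaged 9.64, 9.39, 5.17, 7.66 and 9.30 in recovery mice M1, M3, M5, N2 and N3 and 7.44 in 3-cycles mouse G3, against 5.32 to 5.45 in controls. The arrays also formed 2 sets in a probe set for the mitochondrial ATP6 transcript, 14 arrays at 7.10 to 8.14 and 15 at 11.09 to 11.92. All controls and all 1-cycle mice were in the low set, and all 3-cycles and recovery mice in the high set. The acute mice were split, 2 low and 2 high, and so were the 2-cycles mice, 2 low and 3 high. Results for acute mice among the low-set arrays alone thus compare only 2 acute mice with the 5 controls. In the comparisons of 3 cycles and of recovery with controls, set and group thus cannot be told apart. Where the sets are a covariate below, their effect comes from the acute and 2-cycles mice alone. For 3-cycles and recovery mice that effect is assumed, so the covariate does not separate set from group there. Absorptive colonocyte markers (9 genes) averaged 9.72 to 11.13 in acute colons and 10.09 to 11.29 in the other DSS mice, against 10.96 to 11.22 in controls. In pieces of whole tissue, fewer cells of a type and less RNA per cell cannot be told apart.

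Ptgs2 encodes the inducible cyclooxygenase. The Ptgs2 level was 7.68, 11.36, 9.37 and 8.33 in acute mice B2, B3, B4 and C3. In 1-cycle mice it was 7.63, 8.29, 8.21, 7.85 and 8.27, in 2-cycles mice 7.86, 8.30, 8.83, 8.05 and 8.23, and in 3-cycles mice 7.81, 7.73, 7.76, 7.24 and 8.18. After additional recovery it was 7.82, 7.98, 7.86, 8.25 and 7.75, against 7.40, 7.54, 7.43, 8.01 and 7.83 in controls. B3 stood far above every other colon, B4 and C3 lay above all controls, and B2 lay among the controls. The acute mean was 9.19 ± 1.61, against 7.64 ± 0.27 in controls (SD, n = 4 and 5), and the difference was 1.54 on the log2 scale (SE 0.41, adjusted p = 0.00618). The size of this difference rested on 1 mouse: without B3 it was 0.82 (adjusted p = 0.0265), which was no longer past 2-fold. The adjusted p was 0.118 when acute and control mice were fitted without the other groups, and 0.0883 among the low-set arrays alone (difference 1.88). The other 4 groups differed from controls by 0.10 to 0.61, and none passed the test (2 cycles, adjusted p = 0.418; 95% confidence interval −0.18 to 1.40).

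**Figure D1:**
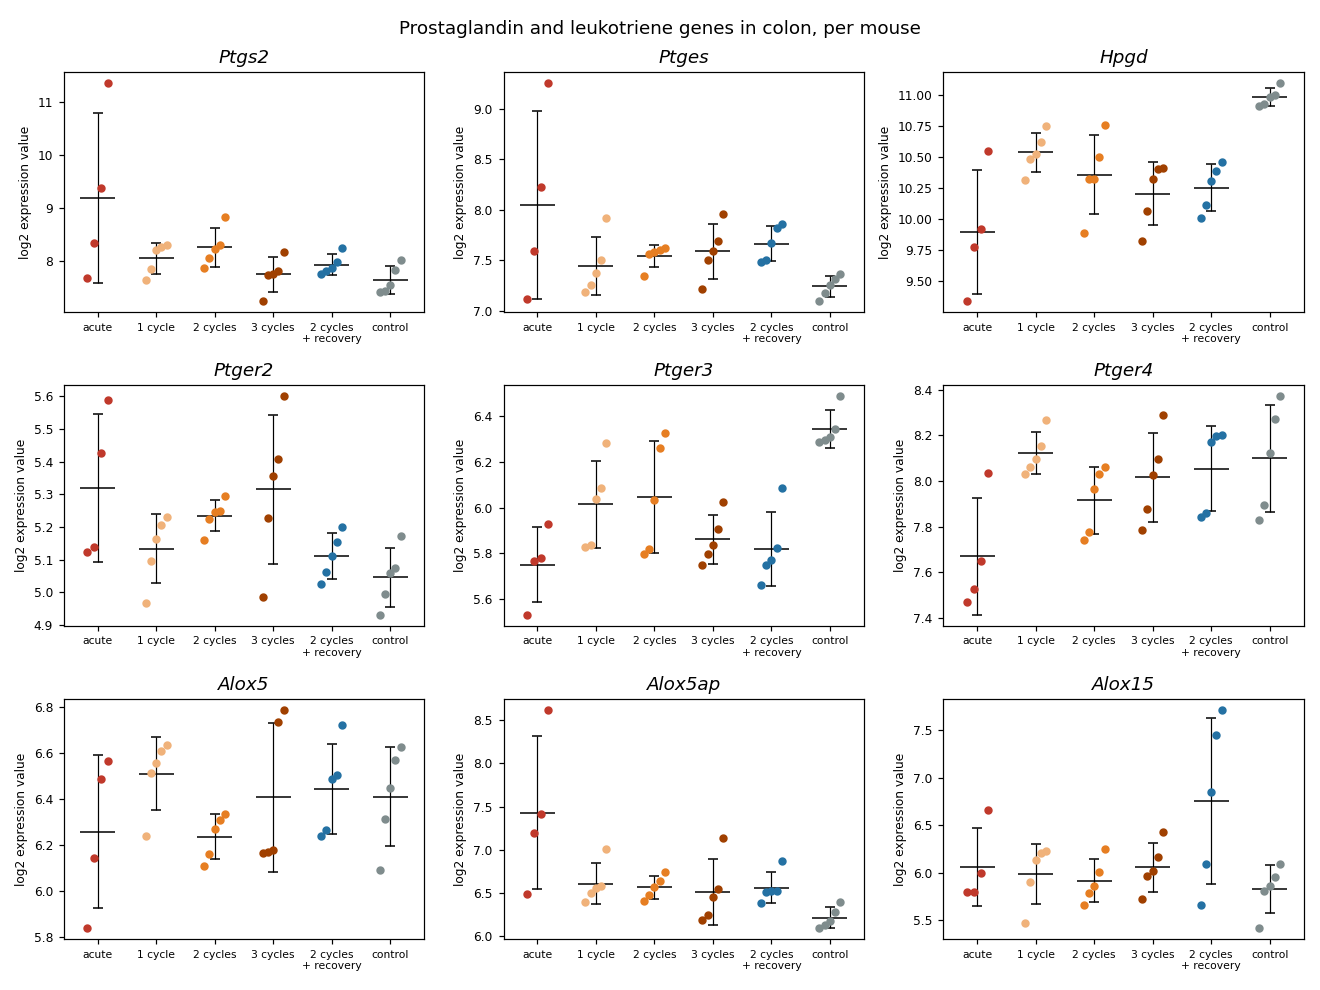
Log2 expression value (vertical axis) of the 9 genes measured, with 1 point per mouse and groups along the horizontal axis; bars give the mean and SD. Acute mouse B3 has the highest Ptgs2 (11.36), Ptges (9.26) and Alox5ap (8.62) values, all DSS mice lie below all controls in Hpgd, and Alox15 is high in 3 of the 5 recovery mice.

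Ptges encodes the inducible prostaglandin E synthase that is often coupled to Ptgs2. Its level was 7.12, 9.26, 8.23 and 7.59 in acute mice B2, B3, B4 and C3, against 7.36, 7.26, 7.18, 7.32 and 7.10 in controls. The order of the acute mice was the same as for Ptgs2, with B3 highest and B2 within the controls. Ptges rose by 0.80 (SE 0.24, adjusted p = 0.0172), under 2-fold, and without B2 the difference was 1.11 (adjusted p = 0.000436). It did not pass the test without B3 (0.40, adjusted p = 0.115), without B4 (0.74, adjusted p = 0.0583), with acute and control mice fitted alone (adjusted p = 0.153) or among the low-set arrays alone (adjusted p = 0.159). The cycle and recovery groups ranged from 7.19 to 7.95, and their mean differences of 0.21 to 0.42 did not pass the test. Of the 24 DSS mice 19 lay above the highest control, and the share of probe sets with as many was not counted. Prostaglandin E synthesis thus had 2 members with higher RNA in acute colitis, both led by the same mouse.

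Hpgd encodes 15-hydroxyprostaglandin dehydrogenase, which starts the breakdown of prostaglandin E. The Hpgd level was 10.55, 9.78, 9.34 and 9.92 in acute mice. It was 10.49, 10.52, 10.62, 10.32 and 10.75 in 1-cycle mice, 9.89, 10.76, 10.32, 10.32 and 10.50 in 2-cycles mice, and 10.32, 10.40, 10.41, 10.07 and 9.83 in 3-cycles mice. After additional recovery it was 10.01, 10.31, 10.38, 10.11 and 10.46, against 11.00, 10.93, 11.10, 10.99 and 10.91 in controls. The highest DSS mouse, at 10.76, lay below the lowest control, at 10.91. Over the array, 0.87% of probe sets had every DSS mouse below every control and 1.33% every DSS mouse above, a count made after the values were seen.

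Hpgd fell by 1.09 on the log2 scale in acute colitis (SE 0.17, adjusted p = 4.11e-05), by 0.62 in 2-cycles (adjusted p = 0.0214), by 0.78 in 3-cycles (adjusted p = 0.0021) and by 0.73 after additional recovery (adjusted p = 0.00484). In 1-cycle colitis the difference was −0.45 and did not pass the test (adjusted p = 0.108; 95% confidence interval −0.78 to −0.11 before adjustment). Recovery mice were −0.10 from 2-cycles mice (adjusted p = 0.908; 95% confidence interval −0.44 to 0.23). In 2-cycles colitis it did not pass without control A5 (adjusted p = 0.0583), without D4 (adjusted p = 0.0773) or without E2 (adjusted p = 0.0537). The call in acute colitis lay close to the 2-fold limit and was lost without B4 (−0.90, adjusted p = 0.00038). With the ATP6 sets as a covariate the difference was −0.98 in acute (adjusted p = 0.000718), −0.50 in 2-cycles (adjusted p = 0.249), −0.57 in 3-cycles (adjusted p = 0.282) and −0.52 in recovery mice (adjusted p = 0.411), and among the low-set arrays alone acute mice were −0.82 from controls (adjusted p = 0.0308). Recovery mouse M5, the 1 left without the mice high in squamous markers, was −0.60 from controls (adjusted p = 0.552). Absorptive colonocyte markers (9 genes) averaged 11.13, 10.81, 9.72 and 10.63 in acute mice B2, B3, B4 and C3 and 10.09 in 3-cycles mouse G3, against 10.96 to 11.22 in controls, and the lowest Hpgd levels of these groups were also those of B4 and G3. Some other mice of these groups had colonocyte means within or above the range of the controls. B2, with a mean of 11.13, had a Hpgd level of 10.55. In 3-cycles mice F1 and F3, with colonocyte means of 11.29 and 11.13, Hpgd was 10.32 and 10.40. Single markers of the list differed from 1 another. Slc26a3 reached at most 11.07 in acute and 11.37 in 3-cycles mice, under the lowest control at 11.48. Car1 ran from 11.80 to 13.42 in acute and from 11.75 to 13.33 in 3-cycles mice, to both sides of the controls at 12.70 to 13.09. Its means were 12.66 and 12.71, against 12.88 in controls. In acute colitis 3 of the 9 colonocyte markers were called lower. Their part in the Hpgd result was not tested.

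The promoters of these 3 prostaglandin E genes are shown because their RNA moved in opposite directions in acute colitis. Each runs from 250 bases before to 50 after the start of the gene (RefSeq, GRCm38.p6), at chr1:150099781-150100080 on the + strand for Ptgs2, chr2:30903248-30903547 on the − strand for Ptges and chr8:56294302-56294601 on the + strand for Hpgd. Capitals mark matches, searched on both strands, to 5 motifs. They were the palindromic C/EBP motif, TTGCGCAA, and the core of the cyclic AMP response element, CGTCA. The others were the E-box, spelled CACGTG, the GC box, spelled GGGCGG, and the TATA box, spelled TATAAA.
Ptgs2: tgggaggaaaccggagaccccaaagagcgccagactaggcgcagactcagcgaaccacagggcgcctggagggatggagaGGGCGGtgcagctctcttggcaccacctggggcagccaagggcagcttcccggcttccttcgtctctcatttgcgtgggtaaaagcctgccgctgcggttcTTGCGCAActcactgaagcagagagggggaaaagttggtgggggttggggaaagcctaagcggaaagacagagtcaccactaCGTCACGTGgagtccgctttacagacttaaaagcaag
Ptges: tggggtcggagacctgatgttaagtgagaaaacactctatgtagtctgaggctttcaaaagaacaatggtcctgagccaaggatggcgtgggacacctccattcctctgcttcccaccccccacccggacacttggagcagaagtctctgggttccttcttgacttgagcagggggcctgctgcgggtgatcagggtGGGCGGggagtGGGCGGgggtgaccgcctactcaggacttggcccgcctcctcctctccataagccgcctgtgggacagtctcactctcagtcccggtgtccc
Hpgd: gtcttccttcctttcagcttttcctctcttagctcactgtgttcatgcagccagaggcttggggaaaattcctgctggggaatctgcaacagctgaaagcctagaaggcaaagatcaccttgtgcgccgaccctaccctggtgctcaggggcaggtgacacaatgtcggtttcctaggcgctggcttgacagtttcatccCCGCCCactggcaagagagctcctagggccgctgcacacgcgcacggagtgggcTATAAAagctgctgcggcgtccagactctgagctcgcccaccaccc

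In the Ptgs2 window the GC box began at base 81 and the C/EBP motif at base 182, before the RefSeq start of the gene. The cyclic AMP element and the E-box, which overlap, began at bases 264 and 267, after that annotated start. The C/EBP motif is in 0.183% of 32851 RefSeq windows of the same length, the cyclic AMP element in 20.8% and the E-box in 7.15%, and among the 8 members with a window in the table each was found in Ptgs2 alone. The Ptges window held 2 GC boxes and none of the other motifs. The Hpgd window held 1 GC box and a match to the TATA box letters from base 255, after the RefSeq start. The GC box is in 35.7% of windows and in 6 of the 8 members, and the TATA box is in 13.6% and in Hpgd alone. These are matches of letters, and binding was not measured.

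The prostaglandin E receptors differed from controls by less than 2-fold in every group. Ptger3 encodes EP3, a receptor that lowers cyclic AMP. The Ptger3 level was 5.93, 5.78, 5.77 and 5.53 in acute mice. It was 6.09, 6.04, 6.28, 5.84 and 5.83 in 1-cycle mice, 5.79, 6.32, 6.03, 6.26 and 5.82 in 2-cycles mice, and 5.84, 5.75, 5.90, 5.80 and 6.02 in 3-cycles mice. After additional recovery it was 5.83, 5.77, 6.09, 5.66 and 5.75, against 6.34, 6.31, 6.49, 6.30 and 6.29 in controls. Only 2-cycles mouse D5, at 6.32, reached into the range of the controls. Ptger3 fell by 0.59 in acute (adjusted p = 0.000253), by 0.48 in 3-cycles (adjusted p = 0.00261) and by 0.53 in recovery mice (adjusted p = 0.00191), all under 2-fold. The differences of −0.33 in 1-cycle and −0.30 in 2-cycles colitis did not pass the test (adjusted p = 0.0542 and 0.0975). The difference was −0.38 in 3-cycles and −0.42 in recovery mice with the ATP6 sets as a covariate (adjusted p = 0.265 and 0.246), and −0.26 in M5, the recovery mouse low in squamous markers (adjusted p = 0.723). Smooth muscle markers, of which 7 of 8 were called lower in acute colitis, were called in no other group against controls. Still, all 8 were below controls in 1- and 2-cycles colitis, with median differences of −0.35 and −0.24. In 3-cycles and recovery mice 7 of the 8 were below controls, with medians of −0.19 and −0.18. By adjusted p alone 1 passed in 1-cycle colitis and 0 in the latter 3 groups. The part of these markers in the Ptger3 results was not tested.

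Ptger4 encodes EP4 and Ptger2 encodes EP2, receptors that raise cyclic AMP. The Ptger4 level was 8.04, 7.65, 7.47 and 7.53 in acute mice, against 7.90, 8.37, 7.83, 8.27 and 8.12 in controls. All acute mice but B2 lay below every control. Ptger4 fell by 0.43 (SE 0.12, adjusted p = 0.0125), which did not pass without B4 (−0.36, adjusted p = 0.0632), and the cycle and recovery groups differed from controls by −0.18 to 0.02 with none passing the test. Ptger2 was dim, at 4.97 to 5.60 in DSS mice and 4.93 to 5.17 in controls, all under the median of all values on the arrays (6.09). Ptger3, at 5.53 to 6.49, lay around that median, and Alox15 in controls, at 5.42 to 6.09, around or under it. Ptger2 rose by 0.27 in acute (adjusted p = 0.042) and by 0.27 in 3-cycles colitis (adjusted p = 0.041), with overlap between the groups, and neither passed without any 1 of the controls A1, A2, A5 and L2, the acute result without B3 or B4 and the 3-cycles result without F1, G2 or G3 (adjusted p up to 0.189 and 0.15). Neither Ptger4 nor Ptger2 passed the test in acute colitis with the ATP6 sets as a covariate (adjusted p = 0.0816 and 0.0751).

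Of the 2 leukotriene synthesis members, Alox5 passed no test and Alox5ap rose in acute colitis. Alox5, which encodes 5-lipoxygenase, was at 5.84 to 6.56 in acute mice and 6.11 to 6.79 in the cycle and recovery groups, against 6.09 to 6.63 in controls. Its differences from controls ran from −0.17 to 0.10 and none passed the test (acute, −0.15, adjusted p = 0.512; 95% confidence interval −0.46 to 0.16). That interval does not reach 2-fold in either direction.

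Alox5ap encodes the 5-lipoxygenase-activating protein. Its level was 6.49, 8.62, 7.19 and 7.41 in acute mice B2, B3, B4 and C3. It was 6.50, 6.56, 7.00, 6.58 and 6.39 in 1-cycle, 6.40, 6.57, 6.74, 6.47 and 6.63 in 2-cycles and 6.45, 6.24, 6.19, 6.54 and 7.14 in 3-cycles mice. After additional recovery it was 6.52, 6.87, 6.52, 6.52 and 6.38, against 6.10, 6.39, 6.17, 6.13 and 6.28 in controls. All 4 acute mice and 21 of the 24 DSS mice lay above the highest control. The share of probe sets with as many was not counted. Alox5ap rose by 1.22 in acute colitis (SE 0.24, adjusted p = 0.000553) and by 0.82 without B3 (adjusted p = 0.00188), then under 2-fold. Among the low-set arrays alone the difference was 1.34 (adjusted p = 0.0415). The other groups were 0.30 to 0.39 above controls and did not pass the test.

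The neutrophil marker mean was highest in the same mouse, B3, and was 7.19 in 3-cycles mouse G3, whose Alox5ap level of 7.14 was also the highest of its group. In acute colitis 7 of 10 neutrophil markers and 7 of 9 macrophage markers were called higher than in controls. Macrophage markers were also called higher in the other groups, 3 in 1-cycle, 4 in 2-cycles, 4 in 3-cycles and 3 in recovery mice. Of the neutrophil markers 0 were called in the cycle groups and 2 after recovery. Against the mean of the cycle groups, 6 neutrophil markers and 1 macrophage marker were called higher in acute mice. The part of these markers in the Ptgs2, Ptges and Alox5ap results was not tested.

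**Figure D2:**
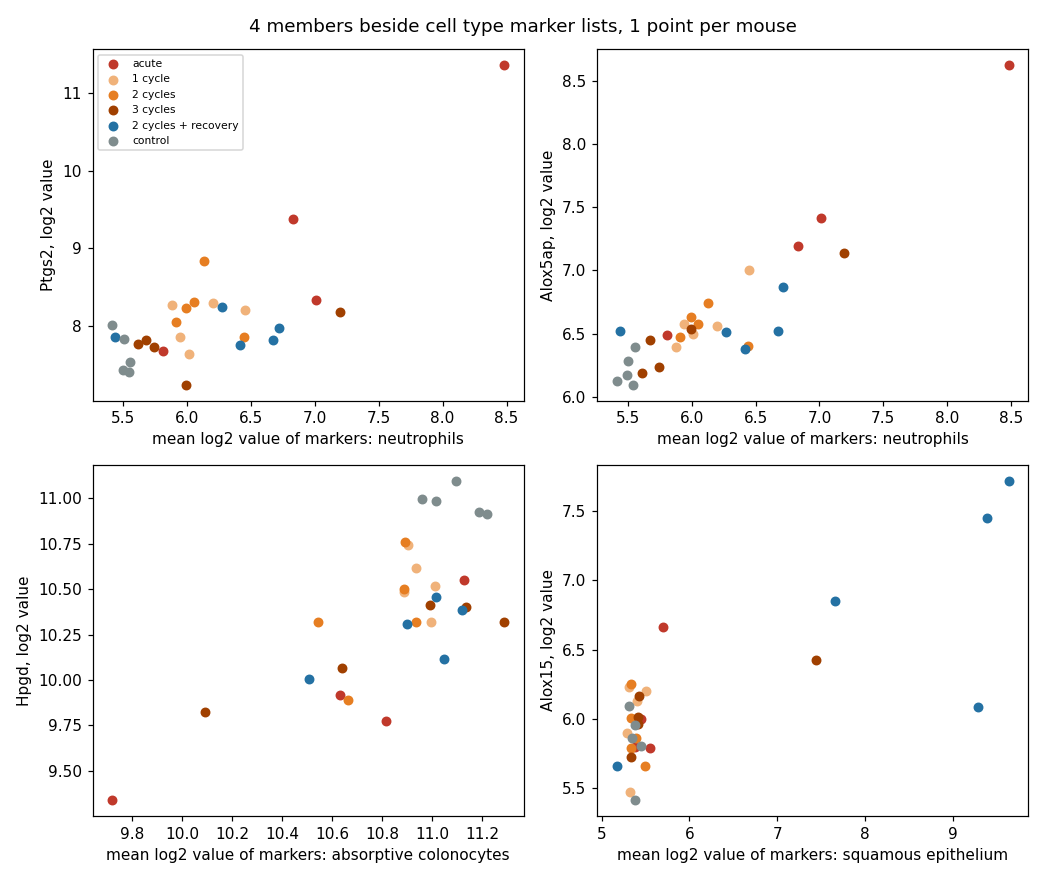
Levels of 4 genes (vertical axes, log2 value) against the mean log2 value of a cell type marker list (horizontal axes), with 1 point per mouse coloured by group. Acute mouse B3 is at the upper right for Ptgs2 and Alox5ap against neutrophil markers, acute mouse B4 is at the lower left for Hpgd against colonocyte markers, and for Alox15 against squamous markers M1 and M3 are at the upper right, while N3, with a squamous mean of 9.30, is within the controls in Alox15 (6.09).

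Alox15 encodes a 12/15-lipoxygenase in mice. Its level after additional recovery was 7.72, 7.45, 5.66, 6.85 and 6.09 in M1, M3, M5, N2 and N3, against 6.09, 5.42, 5.96, 5.81 and 5.86 in controls. In the 2-cycles mice it was 5.66, 6.01, 6.26, 5.79 and 5.87, and the acute mice had 5.80, 5.79, 6.66 and 6.00. 3 of the 5 recovery mice lay above all controls and all 2-cycles mice. Alox15 was 6.75 ± 0.87 after recovery and 5.83 ± 0.25 in controls (SD, n = 5 each), and it rose by 0.93 (SE 0.27, adjusted p = 0.0249), under 2-fold. This did not pass without M1 (0.69, adjusted p = 0.101), without M3 (0.75, adjusted p = 0.082), without control A2 (0.82, adjusted p = 0.0601) or with recovery and control mice fitted alone (adjusted p = 0.102). Against 2-cycles mice the difference was 0.84 (adjusted p = 0.294; 95% confidence interval 0.28 to 1.39 before adjustment).

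The order of the recovery mice in Alox15 was not that of their squamous marker means: M1 and M3 were highest and M5 lowest in both, but N3, with a squamous mean of 9.30, had an Alox15 level of 6.09, within the controls, and N2, with a squamous mean of 7.66, had 6.85. Without M5 Alox15 was 1.20 above controls (adjusted p = 0.00216) and 1.11 above 2-cycles mice (adjusted p = 0.0235), and without N3 it was 1.09 above controls (adjusted p = 0.012). When the 5 mice with squamous marker means above 7 were left out (G3, M1, M3, N2 and N3), the 1 recovery mouse that remained was −0.16 from controls (adjusted p = 0.918). With the ATP6 sets as a covariate the difference from controls was 0.61 (adjusted p = 0.626). Of the 8 squamous markers, 6 were called higher in recovery than in controls, and their part in the Alox15 result was not tested.

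Against controls, 2 of the 9 members were called higher and 1 lower in acute colitis, while over all probe sets 1.38% were called higher and 1.4% lower. By adjusted p alone 4 members rose and 3 fell in acute colitis, against 22.9% of all probe sets in either direction. In 1-cycle colitis 0 members passed by adjusted p alone, where 6.93% of probe sets did, with 0.87% called higher and 0.186% lower. In 2-cycles colitis Hpgd passed by adjusted p alone, where 5.59% of probe sets did, with 0.907% called higher and 0.124% lower. In 3-cycles colitis 3 members passed (Ptger2 up, Hpgd and Ptger3 down), where 18.1% of probe sets did, with 1.02% called higher and 0.597% lower. After additional recovery 3 members passed (Alox15 up, Hpgd and Ptger3 down), where 12.7% of probe sets did, with 1.08% called higher and 0.563% lower. These comparisons share the 5 control mice. The median difference over the 9 members was 0.24 in acute colitis and 0.06 to 0.10 in the other 4 groups, beside medians over all probe sets of 0.04 and −0.01 to 0.02.

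**Figure D3:**
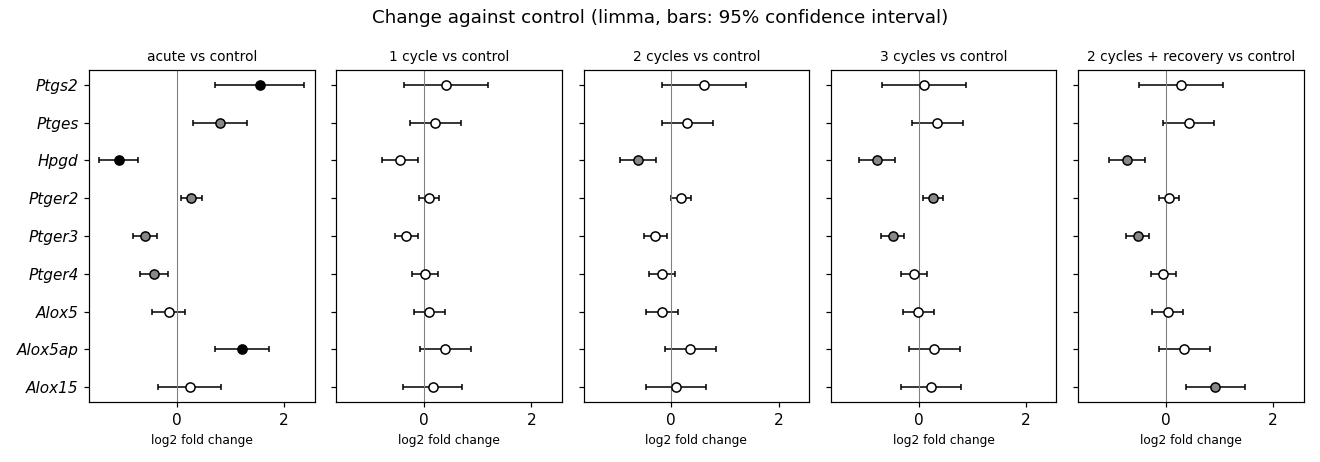
Log2 fold change (horizontal axis) of each gene in the 5 comparisons with controls; points are limma estimates and bars 95% confidence intervals before adjustment. Black points are called (adjusted p under 0.05 and fold above 2), grey points pass by adjusted p alone and open points do not pass; the 3 black points are Ptgs2, Hpgd and Alox5ap in acute colitis.

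Acute colitis was also set against the mean of the 3 cycle groups. Ptgs2 was 1.17 higher in acute mice (SE 0.34, adjusted p = 0.0225), the 1 member called, and Alox5ap was 0.87 higher (adjusted p = 0.00494). Hpgd was −0.47 (adjusted p = 0.0314) and Ptger4 −0.35 (adjusted p = 0.0266) from the cycle groups. The Ptgs2 difference was 0.45 without B3 (adjusted p = 0.256) and did not pass the test without B4 (1.11, adjusted p = 0.0769). Alox5ap did not pass without B3 (0.47, adjusted p = 0.0567), and Hpgd and Ptger4 did not pass without B3, B4 or C3 (adjusted p up to 0.26 and 0.141). Over all probe sets 0.282% were called higher, 0.631% lower and 12.3% passed by adjusted p alone. Between recovery and 2-cycles mice 0 members passed by adjusted p alone, where 0.279% of probe sets did, with 0.152% called higher and 0.00845% lower.

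Of 57 other genes of the pathway, 50 were measured. Pla2g2a encodes a secreted phospholipase A2 that is bactericidal in the gut, and C57BL/6 mice carry a frameshift in it, so that RNA and protein need not match. It was the 1 pathway gene called higher in every colitis group. Its level was 8.04, 8.32, 9.12 and 10.01 in acute mice, 7.73 to 9.29 in the cycle groups and 7.94 to 8.80 after recovery, against 6.65, 6.02, 6.67, 6.44 and 6.78 in controls, with no overlap. Over the array, 1.33% of probe sets had every DSS mouse above every control. Pla2g2a rose by 2.36 in acute (adjusted p = 3.17e-06), by 1.92 in 1-cycle (adjusted p = 0.00019), by 2.36 in 2-cycles (adjusted p = 1.67e-05), by 2.26 in 3-cycles (adjusted p = 1.57e-05) and by 1.87 in recovery mice (adjusted p = 0.000217). With the ATP6 sets as a covariate the recovery difference was 1.23 (adjusted p = 0.171), and in the other 4 groups it stayed past both limits. For 3-cycles and recovery mice this rests on the set effect seen in acute and 2-cycles mice.

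Among the 9 phospholipases measured, Pla2g7 and Pla2g4c were each called in 1 group. Pla2g7, the macrophage enzyme that degrades platelet-activating factor, was at 7.43, 10.17, 8.69 and 8.96 in acute mice, against 7.30, 7.02, 7.29, 6.84 and 7.03 in controls, and rose by 1.72 (adjusted p = 0.000124). As for Ptgs2, B3 was the highest and B2 the lowest acute mouse. Pla2g7 means were 7.95 in 1-cycle, 7.95 in 2-cycles, 7.91 in 3-cycles and 7.90 in recovery mice, against 7.10 in controls. Every DSS mouse lay above the highest control in Pla2g7, as in 1.33% of probe sets over the array. Pla2g4c, a cytosolic phospholipase A2, was at 6.84, 5.59, 7.27, 7.85 and 6.37 in recovery mice, against 4.92, 5.59, 5.12, 5.52 and 5.37 in controls, and rose by 1.48 (SE 0.35, adjusted p = 0.00738). The difference was 1.51 with the ATP6 sets as a covariate and did not pass the test (SE 0.52, adjusted p = 0.218). Pla2g4c means in the groups without a call were 5.69 in acute, 6.22 in 1-cycle, 5.91 in 2-cycles and 6.23 in 3-cycles mice, against 5.30 in controls. All 1-cycle mice lay above the highest control in Pla2g4c.

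No other prostanoid synthase, inactivating enzyme or receptor was called. Of the 9 synthases 1 rose and 3 fell in acute colitis by adjusted p alone: Ptges3, a co-chaperone also named cytosolic prostaglandin E synthase, rose by 0.53 (adjusted p = 0.000152), and Hpgds, the prostaglandin D synthase of mast and other blood cells, fell by 0.65 (adjusted p = 7.16e-05). The largest change among these synthases was that of Cbr2, a carbonyl reductase, −0.87 in acute mice against the cycle groups (adjusted p = 0.0377). Ptgr2, a reductase that acts after Hpgd in the same breakdown, fell by 0.54 in acute colitis (adjusted p = 0.00178). The Ptgr2 mean was 7.64 in acute, 7.85 in 1-cycle, 7.94 in 2-cycles, 7.75 in 3-cycles and 7.85 in recovery mice, against 8.18 in controls. Of the 5 transport and inactivation genes 2 fell in acute, 0 in 1-cycle, 1 in 2-cycles, 2 in 3-cycles and 1 in recovery mice, where 1 also rose. Ptger1, which encodes EP1, fell by 0.48 in acute (adjusted p = 0.00153), by 0.39 in 1-cycle (adjusted p = 0.0174) and by 0.45 in 2-cycles colitis (adjusted p = 0.007), and in each of these groups against controls it was the 1 that passed of the 6 receptors outside the members.

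Of the 8 genes of leukotriene synthesis and transport, Dpep1, a dipeptidase that converts leukotriene D to E, was called in acute colitis. Its level was 10.61, 9.40, 7.08 and 9.29 in acute mice, against 9.91, 10.71, 10.25, 10.58 and 10.67 in controls, and it fell by 1.33 (adjusted p = 0.0435). Without B4 the difference was −0.66 (adjusted p = 0.323), and it did not pass either without B3, C3 or any of the controls A2, A5, L1 and L2 (adjusted p = 0.0515 to 0.0808). Ggt5, the enzyme that converts leukotriene C to D, rose in all 5 groups against controls, by 0.89 in acute (adjusted p = 2.39e-07), 0.45 in 1-cycle, 0.35 in 2-cycles, 0.54 in 3-cycles and 0.38 in recovery mice, all under 2-fold. None of the 4 leukotriene receptors passed the test in any comparison; the largest difference was 0.28 for Ltb4r1, the leukotriene B receptor, in acute colitis (adjusted p = 0.115).

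2 more genes were called after additional recovery. Alox12b, a lipoxygenase of the epidermal barrier, was at 7.53, 7.24, 4.96, 5.49 and 7.15 in M1, M3, M5, N2 and N3, against 4.97, 5.21, 5.16, 5.10 and 5.11 in controls. It rose by 1.37 (adjusted p = 0.00405), and by 1.35 against 2-cycles mice (adjusted p = 0.0472), where it did not pass without M1, M3, N3 or any of the 2-cycles mice (adjusted p = 0.0882 to 0.219). Anxa1, whose protein acts on the lipoxin A receptor, was at 10.65, 10.45, 9.06, 9.69 and 10.40, against 9.08, 8.73, 9.01, 9.09 and 8.81 in controls, and rose by 1.11 (adjusted p = 0.00233), or 0.96 without M1 (adjusted p = 0.0126). Against controls the differences were of like size with the ATP6 sets as a covariate, 1.27 for Alox12b (adjusted p = 0.224) and 1.10 for Anxa1 (adjusted p = 0.15), but did not pass the test. Alox12b was highest in M1, M3 and N3, the recovery mice with the highest squamous marker means, and in N2, with a squamous mean of 7.66, it lay just above the highest control. Anxa1 lay above all controls in these 4 mice, and in M5, the recovery mouse low in squamous markers, Alox12b and Anxa1 were −0.15 and 0.11 from controls. The part of the squamous markers in these results was not tested.

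**Figure D4:**
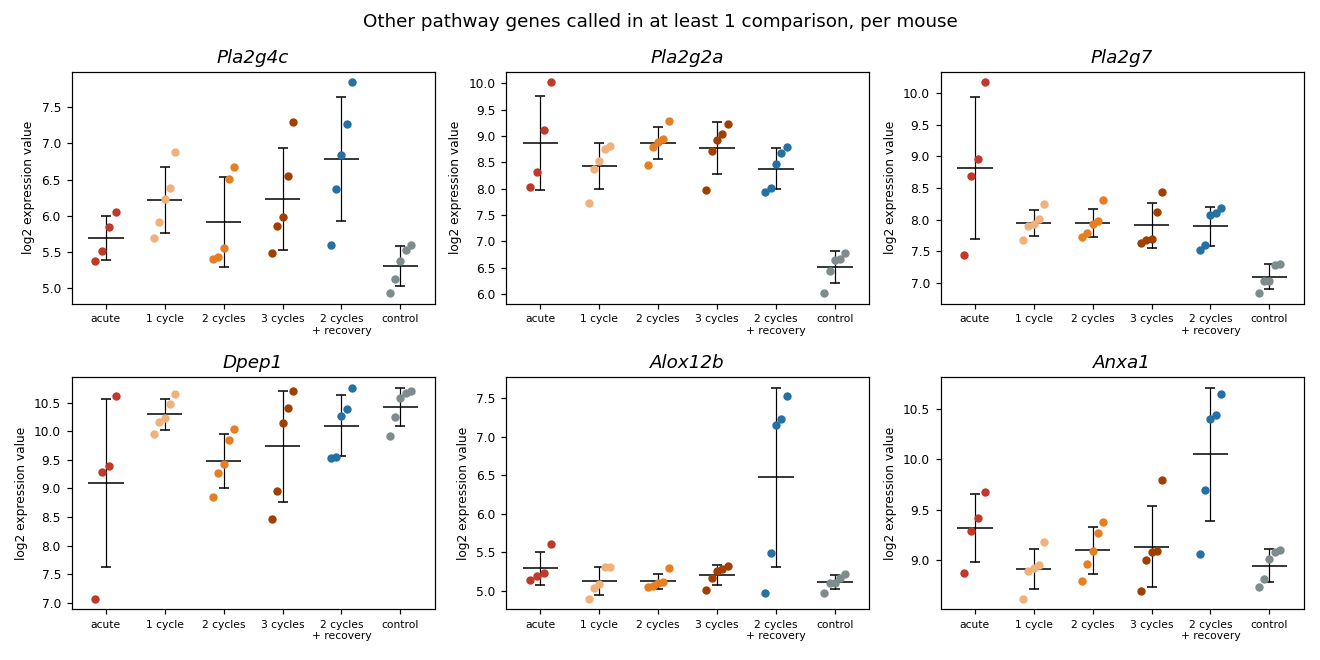
Log2 expression value (vertical axis) of the 6 other pathway genes called in at least 1 comparison, with 1 point per mouse, groups along the horizontal axis and bars for mean and SD. Pla2g2a is above all controls in every DSS mouse, Pla2g7 is highest in acute mouse B3 (10.17), and Alox12b is above 7 in 3 recovery mice and 4.96 in M5.

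Over these 50 genes 2 were called higher and 1 lower in acute colitis, 1 higher in each of the 3 cycle groups and 4 higher after recovery. By adjusted p alone 16, 5, 6, 9 and 11 of the 50 passed in acute, 1-, 2-, 3-cycles and recovery mice against controls, to be read beside the shares of all probe sets given above. Between recovery and 2-cycles mice 1 was called, and between acute and cycle mice 0 were called and 10 passed by adjusted p alone.

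The genes whose levels ran most like those of the called members were listed by Pearson's r over the 29 arrays, as a description. For Ptgs2 they were Gbp11 (r = 0.92), Ifitm6 (0.91) and Il6 (0.91), and over the 25 arrays without acute mice these correlations were 0.61, 0.54 and 0.35. For Alox5ap they were Ifitm6 (0.96), Itgam (0.95) and Mmp9 (0.95), of which Itgam is an integrin of myeloid cells and Mmp9 a protease stored in neutrophils, and without acute mice they were 0.89, 0.83 and 0.81. For Hpgd they were Lin7c (0.96), Chpt1 (0.96) and Enpp5 (0.94), and without acute mice 0.94, 0.94 and 0.95. The likeness of the Ptgs2 genes thus came mostly with the acute mice, and that of the Hpgd genes was as high without them. All points share the same tissue pieces and arrays.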

How the data were processed

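Colon RNA of 29 mice was hybridised to Affymetrix Mouse Gene 1.0 ST arrays. Normalization by RMA was done by the authors, whose deposited values are log2 expression, 1 per probe set and array. The paper describes RMA in Affymetrix software and in R 2.12.2, and does not say which gave the deposited values. Array medians were 6.02 to 6.14, and 0 columns were left out. Arrays carry no read depth, and the number of mice limits precision. Gene symbols came from the platform annotation (21789 probe sets with 1 symbol, 1621 with several, 12101 with none). Members were the 10 genes listed, each by its probe set with that symbol alone; members, gene lists and tests were chosen with earlier results of these data known.

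1 linear model over the 6 groups was fitted with limma 3.58.1 in R 4.3.3 to all 35511 probe sets, with no filter, with 7 comparisons, two-sided tests and Benjamini-Hochberg adjustment; called means adjusted p under 0.05 and fold above 2, the limits the study used. The fit was tested on simulated data. Other pathway genes were named when called, or as the largest change of a role with none called (Ptges3, Hpgds and Ggt5 were named after their values were seen); likeness used the 3 genes of highest r. Where a gene had several probe sets, the brightest was used. Alternatives were the groups fitted, the label letter as a random block (consensus correlation −0.068), array weights, a trended prior, filters, normalization, the ATP6 sets, each mouse left out, and, added after seeing the data, mice high in squamous markers left out and the called pathway genes under each alternative. Promoter windows came from RefSeq (GRCm38.p6); 8 members had one.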

Additional observations from a re-analysis of the deposited data

Results flagged for a closer look

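Acute mice differed from the mean of the 3 cycle groups, by the test of that difference, in 4 genes: Ptgs2 by 1.17 (adjusted p = 0.0225), Alox5ap by 0.87 (adjusted p = 0.00494), Hpgd by −0.47 (adjusted p = 0.0314) and Ptger4 by −0.35 (adjusted p = 0.0266), on the log2 scale with limma. None of the 4 passed without B3 (0.45, adjusted p = 0.256, for Ptgs2), and Ptgs2, Hpgd and Ptger4 did not pass without B4.

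A mouse stood far from the rest of its group in 2 of 54 gene and group pairs, where chance gives about 1 in 20. Ptges was 7.35 in 2-cycles mouse D5, with the nearest mouse of the group at 7.56, and Ptger3 was 6.49 in control mouse A5, with the nearest control at 6.34.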

How the results depend on the processing

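With each mouse left out in turn, the number of members called in acute colitis against controls ran from 1 to 4 (3 with all mice; 1 without B3), against the cycle groups from 0 to 2 (1 with all mice; 0 without B3 or B4, 2 without B2), and in recovery mice from 0 to 1 against both controls and 2-cycles mice (0 with all; 1 without M5, or, against controls, without N3). With only the compared groups fitted, or with array weights, 0 members were called in acute mice against the cycle groups, and within the low ATP6 set 1 was called in acute mice against controls. By adjusted p alone 7 were called in acute, 1 in 2-cycles, 3 in 3-cycles and 3 in recovery mice against controls, and 4 in acute mice against the cycle groups.

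Signs turned in differences that passed no test with all mice, except those of Alox15 and Alox12b named below. With the letter block Alox5 in 3-cycles mice against controls was 0.0080, and with array weights Alox15 in acute against cycle mice was −0.019. With the ATP6 sets as a covariate Alox15 was −0.10 and −0.086 in 2- and 3-cycles mice, Ptger4 0.060 in 3-cycles and 0.099 in recovery mice, Alox5 0.15 in 3-cycles mice, and Alox5ap 0.014 in recovery against 2-cycles mice; within the low set Alox5 was 0.11 and Alox15 −0.032 in acute mice. Without the mice high in squamous markers, which leaves 1 recovery mouse assumed to vary like the other groups, Ptgs2 was −0.0072 and Alox5 0.057 in 3-cycles mice, and Ptger4 was 0.073, Alox15 −0.16 and Alox12b −0.15 in the recovery mouse against controls, and Hpgd 0.025, Ptger3 0.040, Alox15 −0.25 and Alox12b −0.16 against 2-cycles mice. With all mice, Alox15 against controls and Alox12b in both comparisons had passed. The causes were not tested.

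With 1 mouse left out, the differences that changed sign ran from −0.013 to 0.16 (Alox15, 2 cycles), −0.047 to 0.088 (Alox5, recovery), −0.10 to 0.057 (Alox5, 3 cycles), −0.044 to 0.092 (Ptger4, 1 cycle), −0.11 to 0.024 (Ptger4, recovery) and −0.0072 to 0.23 (Ptgs2, 3 cycles) against controls, −0.080 to 0.042 (Alox5ap, recovery against 2 cycles), and −0.12 to 0.17 (Alox15) and −0.23 to 0.013 (Alox5) in acute against cycle mice. In all, 1460 values kept direction and call, 43 changed sign, 42 lost and 5 gained a call. Dpep1 in acute colitis lost its call without any 1 of 7 mice (adjusted p up to 0.323) and Alox12b in recovery against 2-cycles mice without any 1 of 8. The filter on dim probe sets removed Ptger2. No member had a further probe set to try, and within the ATP6 sets comparisons with fewer than 2 mice in a group were not run. No paired analysis was possible because the groups share no replicate numbers.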
